A study of Mus musculus with 22 samples.

Results

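The nuclear-coded subunit genes of the mitochondrial respiratory chain, complexes I to IV, were followed through serial passage and loss of S6 kinase in mouse embryonic fibroblasts (MEFs), primary embryo cells whose growth arrests after repeated passage in culture. Members were the protein-coding genes of the count table whose mouse symbol is a Nduf subunit (letters a, b, c, s or v and a number), a Cox subunit from 4 to 8, a Uqcr gene or Sdha to Sdhd. This gave 64 of 55401 gene identifiers, with 37 in complex I, 4 in complex II, 8 in complex III and 15 in complex IV. The rule read gene names and no measured value. Of the 64, 60 had 10 or more counts in 3 or more libraries and were tested. The 4 that did not were Cox8c and a second identifier of Ndufb8, both at 0 counts in every library, Cox7b2 with 10 counts over all 22 libraries and Cox8b with 7.

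The respiratory chain passes electrons from NADH through complex I (NADH dehydrogenase), or from succinate through complex II (succinate dehydrogenase, also an enzyme of the citric acid cycle), to ubiquinone, then through complex III (the cytochrome bc1 complex) and cytochrome c to complex IV (cytochrome c oxidase), which reduces oxygen. Complexes I, III and IV pump protons across the inner mitochondrial membrane, and ATP synthase uses the gradient. Most subunits are coded in the nucleus, a smaller number of core subunits of complexes I, III and IV by mitochondrial DNA, and complex II by nuclear genes alone. S6K1 and S6K2 are kinases downstream of mTOR, a nutrient sensor with known roles in mitochondrial gene expression.

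RNA from 22 MEF cultures was sequenced, in 2 sets of MEFs. The S6K1 set held WT MEFs at passage 3 (early, n = 4), WT MEFs at passage 8 (late, n = 4) and S6K1 KO MEFs at passage 8 (late, n = 3). The S6K1/S6K2 set held its own WT MEFs at passage 3 (n = 4) and passage 8 (n = 4) and S6K1/S6K2 DKO MEFs, lacking both kinases, at passage 8 (n = 3). The study's methods give S6K1 WT and KO embryos as littermates, whereas the WT mothers of the S6K1/S6K2 set came from earlier breeding than the DKO litters, so that genotype and litter cannot be told apart in that set. No KO or DKO library at passage 3 was analysed here. The study's methods give MEFs from several independent mothers for its experiments in general, but neither they nor the labels tie these libraries to embryos, so that P values measure the spread between these libraries, which may in part be technical.

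Total counts were 10742454 to 17314832 per library. The targeted genes followed the labels. Rps6kb1 (S6K1) was at 55.0, 71.8, 59.0 and 64.3 CPM (counts scaled to the library total) in late S6K1 WT and 22.8, 23.3 and 13.0 CPM in late KO MEFs, and Rps6kb2 (S6K2) at 17.0, 11.4, 10.7 and 14.4 CPM in late WT and 0.565, 0.465 and 1.44 CPM in DKO MEFs. Fibroblast markers (10 genes with Col1a1, Col3a1 and Vim among them) summed to 18759 to 41959 CPM. Macrophage markers summed to 403 to 2027 CPM in the 8 early WT libraries, 5179.6 to 13074 CPM in the 8 late WT libraries, 3609 to 4500.0 CPM in KO and 979.9 to 3307 CPM in DKO libraries. RNA of 4 Y-linked genes was present in 2 of 4 early WT, 1 of 4 late WT and 3 of 3 KO libraries of the S6K1 set, and in 2 of 4, 3 of 4 and 1 of 3 libraries of the corresponding groups of the S6K1/S6K2 set. In bulk RNA, fewer cells of a type and less RNA per cell cannot be told apart.

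The start regions of 4 members are shown because their levels are described most closely below. Ndufa1 and Cox6b2 rose with passage in the S6K1/S6K2 set, and Cox6b1 is the general partner isoform of Cox6b2. Uqcrc1, with Uqcrc2, stood apart from the other tested members of its complex in that comparison. Each start region runs 5′ to 3′ on the gene's strand from 250 bases before to 50 bases after the RefSeq start (GRCm38.p6). Capitals mark matches, on either strand, to GCGCATGCG (the NRF1 motif), CTTCCGG (the ETS motif bound by GABP), AAGATGGCG (YY1) or GGGCGGG (Sp1), the factors best known at promoters of respiratory chain genes. The windows lie at chrX:37191189-37191488 (minus strand), chr7:4753045-4753344 (minus), chr7:30626065-30626364 (minus) and chr9:108936398-108936697 (plus).
Ndufa1: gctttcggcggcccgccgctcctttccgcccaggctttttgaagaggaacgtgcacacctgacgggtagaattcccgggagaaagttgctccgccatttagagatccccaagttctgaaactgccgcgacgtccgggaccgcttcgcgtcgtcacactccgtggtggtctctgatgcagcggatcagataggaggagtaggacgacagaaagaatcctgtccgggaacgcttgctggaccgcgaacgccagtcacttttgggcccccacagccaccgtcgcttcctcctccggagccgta
Cox6b2: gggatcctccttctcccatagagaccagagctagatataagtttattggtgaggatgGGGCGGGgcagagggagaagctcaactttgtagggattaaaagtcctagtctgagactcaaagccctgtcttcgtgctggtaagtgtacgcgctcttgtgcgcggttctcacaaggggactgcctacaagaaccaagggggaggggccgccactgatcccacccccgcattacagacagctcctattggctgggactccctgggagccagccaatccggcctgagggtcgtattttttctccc
Cox6b1: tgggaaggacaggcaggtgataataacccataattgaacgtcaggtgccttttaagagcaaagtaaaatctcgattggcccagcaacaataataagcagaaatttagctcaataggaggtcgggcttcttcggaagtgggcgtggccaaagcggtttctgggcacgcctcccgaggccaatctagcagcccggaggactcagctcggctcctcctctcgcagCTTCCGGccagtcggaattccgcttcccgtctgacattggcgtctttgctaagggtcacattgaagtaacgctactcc
Uqcrc1: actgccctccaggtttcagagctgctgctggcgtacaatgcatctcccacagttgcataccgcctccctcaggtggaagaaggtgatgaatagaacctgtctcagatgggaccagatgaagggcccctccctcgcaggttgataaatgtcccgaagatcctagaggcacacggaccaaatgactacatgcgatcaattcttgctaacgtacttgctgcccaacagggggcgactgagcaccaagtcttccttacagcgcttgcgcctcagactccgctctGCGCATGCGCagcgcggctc
The Cox6b2 window held an Sp1 match (bases 58 to 64). The Cox6b1 window an ETS match (bases 223 to 229) and the Uqcrc1 window overlapping NRF1 matches on both strands (bases 281 to 289 and 282 to 290). The Ndufa1 window held none of these letters.

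Of the 63 member symbols, 52 had a promoter window in the RefSeq table, which held 27025 symbols (1 window taken per symbol). The NRF1 letters were found in 5 member windows (Cox6a1, Ndufa11, Ndufa8, Uqcr11 and Uqcrc1), or 9.62%, against 1.81% of all windows. The YY1 letters were found in 5 (Ndufa9, Ndufc1, Ndufs4, Ndufs6 and Ndufs7), or 9.62%, against 404 of all 27025 windows. ETS letters were in 11 member windows (21.2%, against 9.12%) and Sp1 letters in 17 (32.7%, against 25.8%). Of the genes called below, Cox6b2 held the Sp1 letters and Ndufa1 none, and Sdhc, Uqcrb and Uqcrc2 were not in the table.

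Levels of the 60 tested subunit genes spanned a wide range. Per kilobase of annotated exon and averaged over the 22 libraries, Cox6b1 was highest at 876.8 CPM per kilobase, followed by Cox6a1 at 695, both small subunits of complex IV, then Ndufa4 at 603, a small subunit that carries a complex I name but is now placed with complex IV. Cox6a2 was lowest at 1.65. The median was 191 CPM per kilobase for the 12 tested genes of complex IV, 169.0 for the 8 of complex III, 98.1 for the 36 of complex I and 68.8 for the 4 of complex II. In CPM, without length, the 3 highest members were Cox6a1 (488), Cox6b1 (443) and Uqcrh (365), the last coding for the acidic hinge protein of complex III. Exon lengths are unions over an annotation of an earlier build and can be too long for single genes, as for Ndufb2 with 5628 bases.

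The subunit genes of complexes I, III and IV moved together from library to library within groups. Summed over the 64 members, S6K1 early WT libraries 1 to 4 held 7980.3, 11346, 7737 and 10439 CPM, late WT libraries 11371, 11188, 8376 and 9787 CPM and KO libraries 8326, 9069 and 10963 CPM. The corresponding sums of the S6K1/S6K2 set were 7334, 7251, 8521 and 8588 CPM in early WT, 8273, 10071, 11737 and 8806 CPM in late WT and 11094, 10629 and 7132 CPM in DKO libraries. The ranges of all 6 groups overlapped. The early WT libraries of the S6K1/S6K2 set lay closest together. In DKO library 3, 54 of the 60 tested genes had the lowest CPM of their group. In KO library 3, 50 had the highest. In late WT library 3 of the S6K1/S6K2 set, 44 had the highest.

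**Figure D1:**
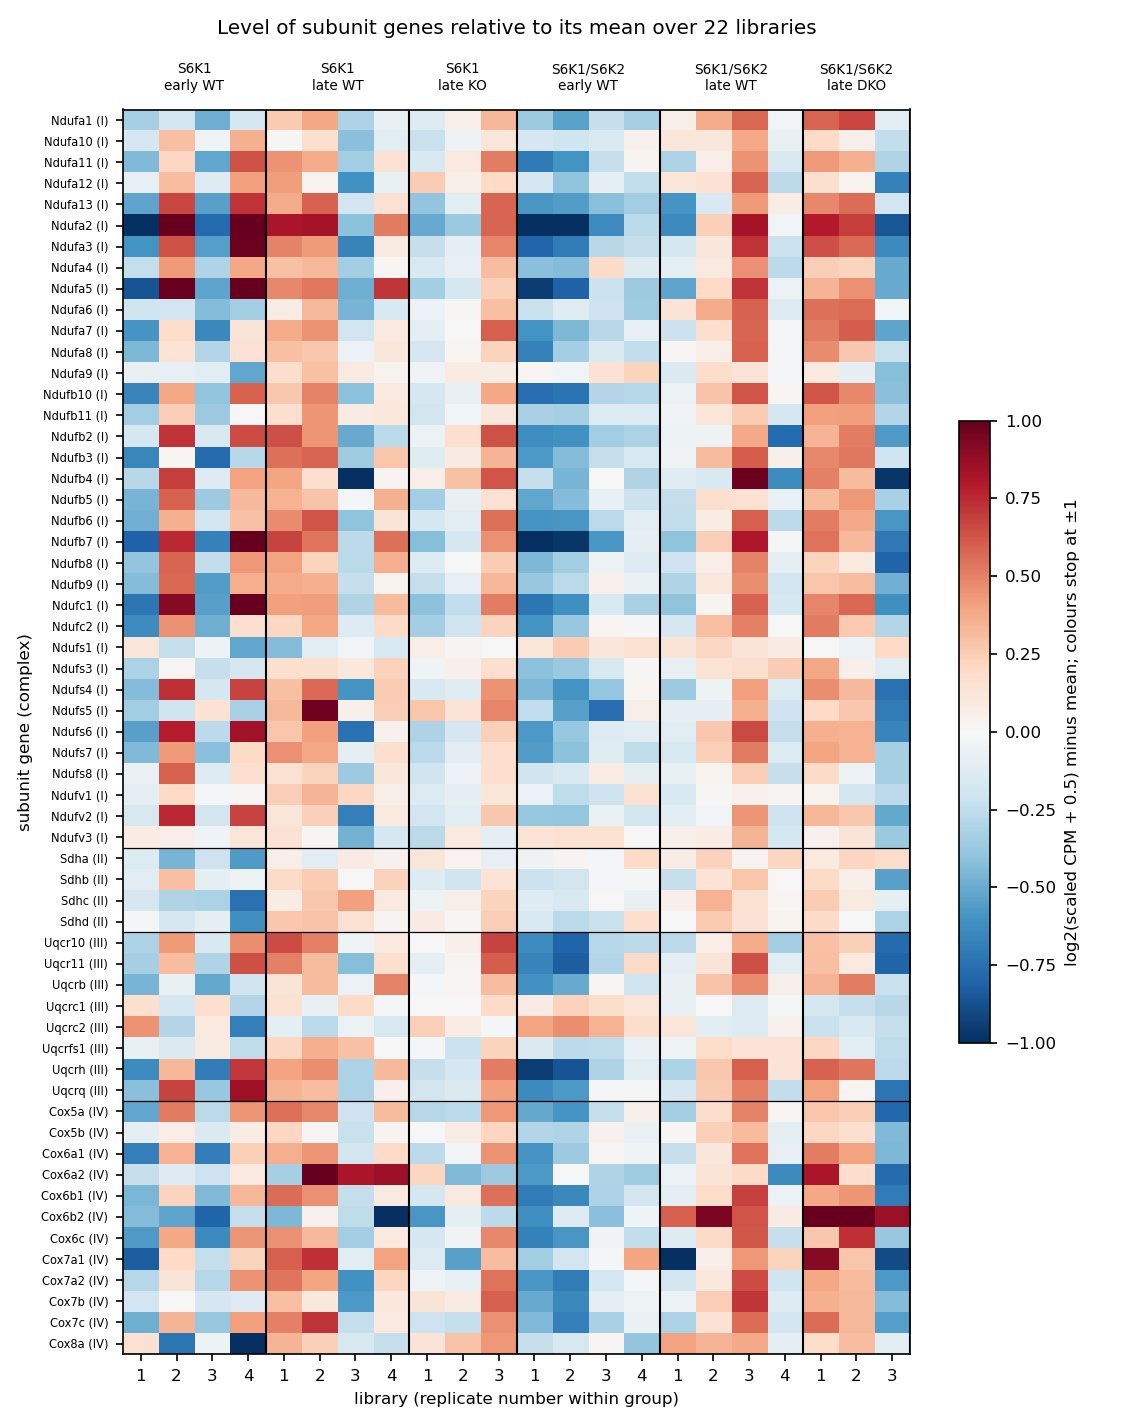
Level of the tested subunit genes reported by name (rows, with complex in parentheses) in each of the 22 libraries (columns, by group and replicate number) as the difference of log2(scaled CPM + 0.5) from the gene's mean over all libraries (red above, blue below, colours stopping at ±1). Whole columns are red or blue within groups, such as DKO library 3, while complex II, Uqcrc1, Uqcrc2 and Ndufs1 stay pale or go the other way.

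Many of the same libraries stood out for ribosomal protein genes, another group of short, abundant transcripts. Their summed level ran from 46245 to 92204 CPM, and in 4 of 6 groups the library with the highest sum of subunit genes also had the highest sum of ribosomal protein genes (the same held for the lowest in 4 of 6). In DKO library 3, 70 of 74 tested ribosomal protein genes were the lowest of their group. In S6K1 early WT the libraries split in pairs. Libraries 2 and 4 exceeded libraries 1 and 3 in 37 of 60 subunit genes and fell below both in 12 (Sdha, Sdhc, Sdhd, Uqcrc1 and Uqcrc2 among them), against 19.5% above and 44.8% below among all genes tested. Libraries 1 and 3 were those of the group with Y-linked RNA. The part of these library differences in the results below was tested only by the alternatives named there.

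**Figure D2:**
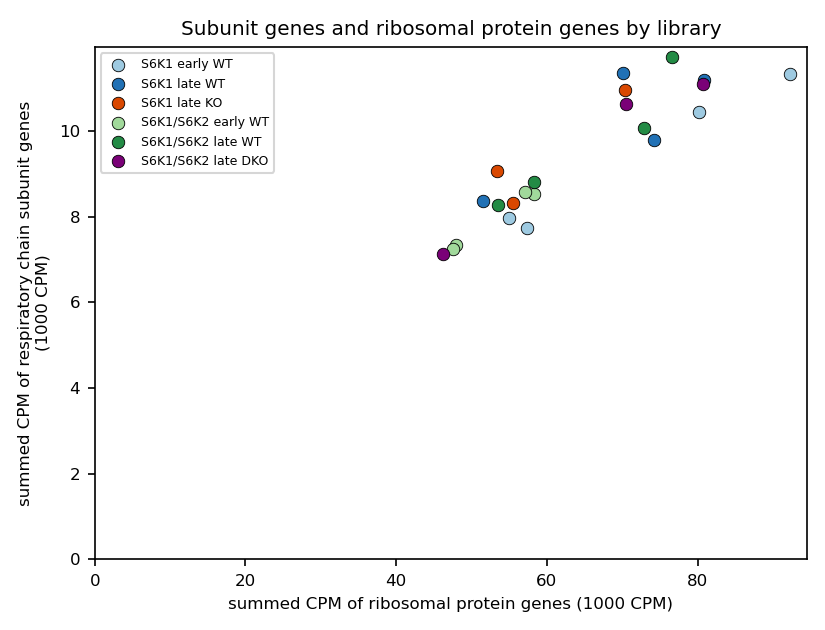
Summed CPM of the 64 subunit genes against summed CPM of ribosomal protein genes, both in units of 1000 CPM, for the 22 libraries coloured by group. Libraries with more ribosomal protein RNA mostly held more subunit RNA. DKO library 3 was lowest in both (7132 and 46245 CPM), and S6K1 early WT library 2 was highest in ribosomal protein RNA (11346 and 92204 CPM). The highest subunit sum was that of S6K1/S6K2 late WT library 3 (11737 and 76576 CPM). Not every group followed 1 line. S6K1 late WT library 1 (11371 and 70080 CPM) held more subunit but less ribosomal protein RNA than library 2 (11188 and 80898 CPM).

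In the S6K1 set, late WT against early WT MEFs asks how subunit genes differ after passage in cells with both kinases. Sdhc and Uqcrb rose, and no tested member fell. Of 60 tested genes, 2 rose (3.33%) against 7.2% of all 14991 genes tested, and 0 fell against 4.75% (edgeR, quasi-likelihood F test, P values adjusted over all genes by Benjamini-Hochberg). The median log2 fold change of the members was 0.16, with 43 of 60 above 0, where the median of all genes was -0.00. The median of the members was 0.07 with the trend of level on exon length removed (an alternative added after seeing the data) and 0.05 with Y-linked RNA as a covariate. By complex the medians were 0.06 for complex I, 0.37 for complex II, 0.14 for complex III and 0.24 for complex IV. Within complex I, the 7 core subunits coded in the nucleus had a median of 0.16 and the 29 accessory subunits 0.05. At an unadjusted P under 0.05, 11 of 60 members passed, against 4021 of all 14991 genes tested.

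Sdhc, a membrane anchor of complex II that helps bind ubiquinone (chr1:171129157-171150640, GRCm38.p6), was at 166, 133, 144 and 87.9 CPM in early WT and 174, 194, 236 and 174 CPM in late WT libraries of the S6K1 set, a log2 fold change of 0.59 ± 0.15 (SE), adjusted P = 0.0246. All 4 late libraries lay above all 4 early ones, early library 4 being the lowest and late library 3 the highest. Without early library 4, late library 2 or late library 3 the adjusted P was 0.0648, 0.0637 or 0.0718. Uqcrb, a small subunit of complex III near its ubiquinone site (chr13:66900576-66905350), was at 99.5, 115, 92.5 and 95.0 CPM in early WT and 133, 148, 126 and 169.7 CPM in late WT libraries (0.54 ± 0.16 (SE), adjusted P = 0.0457), again without overlap. Its call was lost without any 1 of 6 of the 8 libraries (early 1, 3 or 4, late 1, 2 or 4; adjusted P from 0.0746 to 0.114).

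Complex II genes summed to 440.4 to 800.8 CPM over the 22 libraries, with S6K1 early WT library 4 the lowest. The summed level was 692, 611, 636 and 440.4 CPM in early WT and 733, 727, 801 and 709.7 CPM in late WT MEFs of the S6K1 set. Every late library exceeded every early one. Besides Sdhc, the values were 0.35 ± 0.13 (SE), adjusted P = 0.105 for Sdha, the flavoprotein that oxidizes succinate, 0.39 ± 0.15 (SE), adjusted P = 0.1 for Sdhd, the other membrane anchor, and 0.16 ± 0.14 (SE), adjusted P = 0.522 for Sdhb, the iron-sulphur subunit. DESeq2 called Sdha as well as Sdhc. In the S6K1/S6K2 set the sums were 670.2, 651, 664 and 706 CPM in early WT and 660.1, 785, 699.7 and 719 CPM in late WT libraries, which overlapped, and the fold changes of the 4 genes were 0.10 to 0.24, with none called (lowest adjusted P = 0.177, for Sdhc). Sdhc itself was at 167, 159, 169 and 159 CPM in early and 173, 210.3, 173 and 171 CPM in late libraries of that set, which did not overlap but lay close. The difference between the sets in the passage effect on Sdhc was -0.35 ± 0.18 (SE), adjusted P = 0.565.

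**Figure D3:**
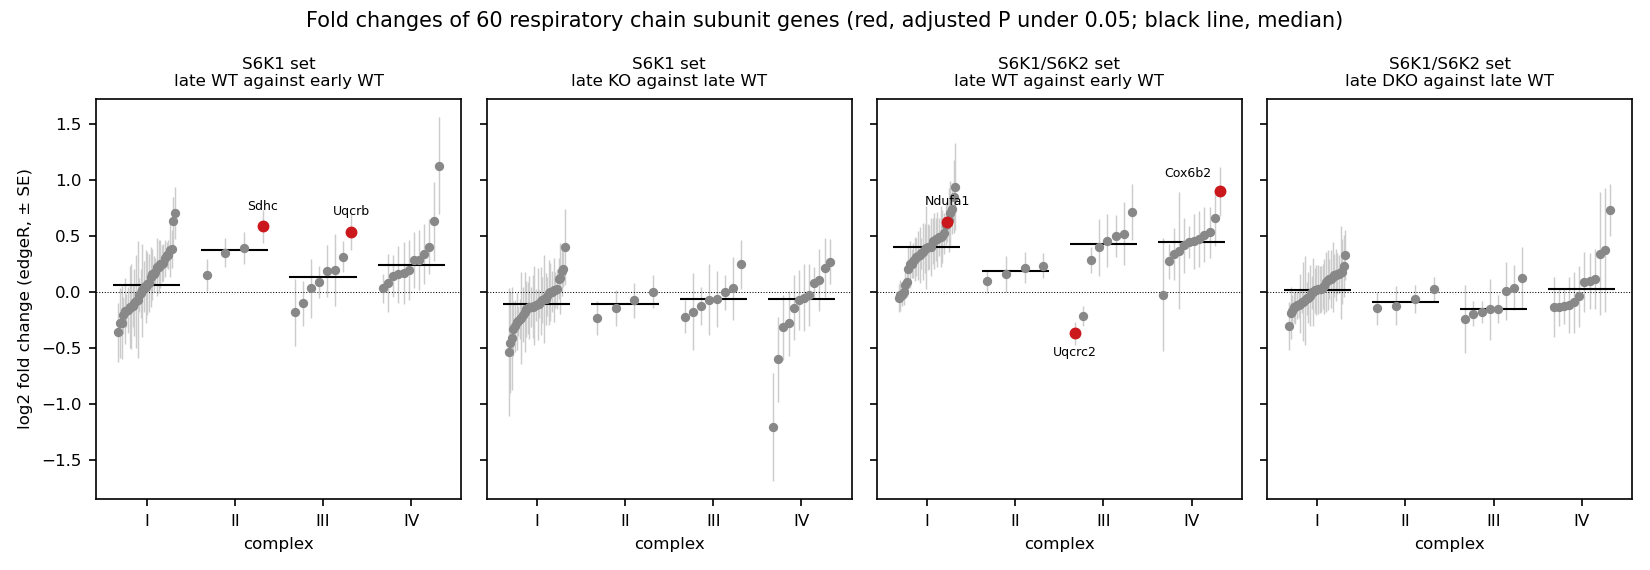
Log2 fold change (edgeR, bars ± SE) of the 60 tested subunit genes, sorted within complexes I to IV, in 4 comparisons, with the median of each complex as a black line and genes with an adjusted P under 0.05 in red. Late against early WT in the S6K1/S6K2 set lies mostly above 0 (median 0.40) with Uqcrc2 below, whereas the KO and DKO comparisons are centred near 0 with no gene called.

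In the S6K1/S6K2 set the same passage comparison gave Ndufa1 and Cox6b2 as higher and Uqcrc2 as lower in late WT MEFs. Of 60 tested members, 2 rose (against 7.98% of all genes tested) and 1 fell (against 4.62%). The median log2 fold change was 0.40, with 53 of 60 above 0. An unadjusted P under 0.05 was reached by 21 of 60, against 4539 of all 14991 genes tested. The medians were 0.40 for complex I, 0.19 for complex II, 0.43 for complex III and 0.45 for complex IV. Within complex I, the 7 nuclear core subunits had a median of 0.09, with 5 above 0, and the 29 accessory subunits 0.40, with 27 above 0. The 74 ribosomal protein genes had a median of 0.40 in the same comparison, and other protein-coding genes with exons under 1000 bases a median of 0.37, against -0.03 for those of 2000 bases and over. With passage in the S6K1 set the ribosomal protein genes had a median of 0.00, with 37 of 74 above 0, and the other short genes 0.13, where the members had 0.16. With each library's trend of level on exon length removed (an alternative added after seeing the data), the median of the members was 0.20 and Ndufb3, Ndufb10, Uqcrc1 and Uqcrc2 were called, with Ndufa1 at 0.28 and Cox6b2 at 0.57 no longer called. Scaling by library totals alone gave a median of 0.31.

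Ndufa1, a small accessory subunit of complex I coded on the X chromosome (chrX:37187588-37191238), was at 52.4, 44.6, 53.3 and 49.0 CPM in early WT and 64.5, 79.1, 85.7 and 61.4 CPM in late WT libraries of the S6K1/S6K2 set (0.63 ± 0.18 (SE), adjusted P = 0.039). All 4 late libraries lay above all 4 early ones. The call was lost without any 1 of 6 of the 8 libraries (early 1, 2, 3 or 4, late 2 or 3; adjusted P from 0.0556 to 0.137) and with Y-linked RNA as a covariate (adjusted P = 0.0681). In the S6K1 set Ndufa1 was at 54.6, 53.1, 47.1 and 48.3 CPM in early WT and 73.2, 77.8, 53.0 and 57.2 CPM in late WT libraries, where late library 3 lay within the early range (0.39 ± 0.17 (SE), adjusted P = 0.167).

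Uqcrc1 and Uqcrc2, the core proteins of complex III that face the matrix, had fold changes below 0 with passage in the S6K1/S6K2 set. The other 6 tested members of complex III were above 0. Cyc1, a complex III subunit outside the naming rule, also had lower levels in most late libraries. It was at 85.9, 78.0, 75.8 and 72.8 CPM in early WT and 72.8, 57.8, 50.05 and 69.1 CPM in late WT libraries of that set. Uqcrc2 (chr7:120635189-120659523) was at 140.1, 142, 126 and 109.8 CPM in early WT and 106, 89.2, 82.8 and 102 CPM in late WT libraries of the S6K1/S6K2 set (-0.37 ± 0.10 (SE), adjusted P = 0.0358), with every late library below every early one. The call was lost without any 1 of 5 libraries (early 1, 2 or 3, late 2 or 3; adjusted P from 0.068 to 0.116). Uqcrc1 (chr9:108936648-108949641) was at 235, 251, 233 and 221 CPM in early WT and 194, 200.4, 172 and 203 CPM in late WT libraries, also without overlap, at -0.21 ± 0.09 (SE), adjusted P = 0.143. DESeq2 called both Uqcrc1 and Uqcrc2. Uqcrfs1, the Rieske iron-sulphur protein, had 0.29 ± 0.12 (SE), adjusted P = 0.116. In the S6K1 set, where early WT libraries were split, Uqcrc2 was at 148, 77.9, 112 and 53.6 CPM in early and 90.3, 77.6, 99.3 and 84.8 CPM in late WT libraries, which overlapped (-0.10 ± 0.20 (SE), adjusted P = 0.797).

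Of the other complex I genes, Ndufs3, a core subunit of the arm that carries the iron-sulphur clusters, was at 65.2, 72.1, 66.5 and 57.5 CPM in early and 80.4, 78.3, 83.5 and 83.3 CPM in late WT libraries of the S6K1 set (0.34 ± 0.12 (SE), adjusted P = 0.0815). The groups did not overlap, and DESeq2 called Ndufs3 in that set. Of the 7 nuclear core subunits there, 4 had fold changes above 0 and 3 below (from -0.36 to 0.34), with 0 called by edgeR. In the S6K1/S6K2 set Ndufs3 was at 59.8, 59.2, 66.2 and 73.7 CPM in early and 69.3, 79.3, 75.8 and 88.2 CPM in late WT libraries, which overlapped. Among accessory subunits, Ndufb3 was next to the threshold with edgeR in both sets (0.71 ± 0.23 (SE), adjusted P = 0.0649 in the S6K1 set and 0.60 ± 0.19 (SE), adjusted P = 0.051 in the S6K1/S6K2 set). DESeq2, scaling by library totals alone and removal of the length trend each called Ndufb3 in both sets. The widest spread was that of Ndufa2, at 122, 461, 147 and 615 CPM in the 4 S6K1 early WT libraries, with libraries 2 and 4 high and 1 and 3 low.

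**Figure D4:**
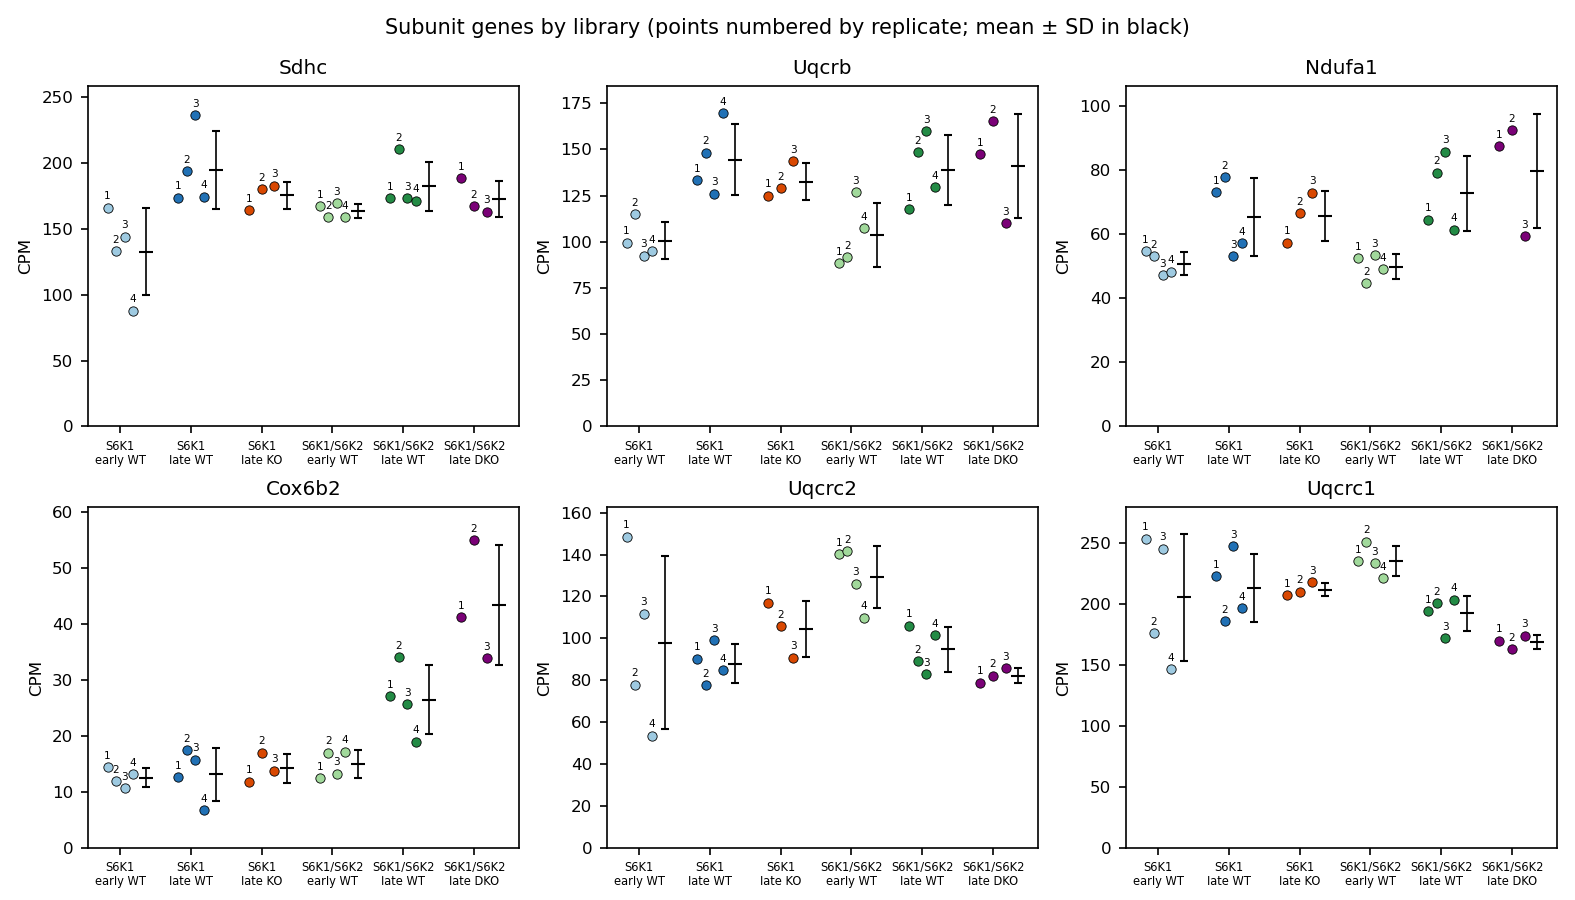
CPM per library of the 5 called genes and Uqcrc1 in the 6 groups, with points numbered by replicate and black bars giving the mean ± SD. Cox6b2 is at 19.0 to 55.0 CPM in late WT and DKO libraries of the S6K1/S6K2 set and at 6.77 to 17.5 CPM in the other 4 groups, and Uqcrc2 is lower in late than in early WT libraries of that set.

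Isoform pairs of complex IV were compared because several subunits exist in a general form and a form of muscle, testis or other tissues. Cox6b2, the testis form of Cox6b1 (chr7:4751792-4753094), was at 12.5, 17.1, 13.3 and 17.2 CPM in early WT, 27.1, 34.1, 25.7 and 19.0 CPM in late WT and 41.3, 55.0 and 34.0 CPM in DKO libraries of the S6K1/S6K2 set. Late WT libraries lay above early ones without overlap (0.90 ± 0.22 (SE), adjusted P = 0.0196). DKO library 3 lay within the late WT range, and the fold change between DKO and late WT, 0.73 ± 0.23 (SE), adjusted P = 0.101, did not pass with edgeR, while DESeq2 gave 0.75 with an adjusted P of 0.0451. The passage call was lost without early library 1 or 3 or late library 2 or 3 (adjusted P from 0.0503 to 0.0747).

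In the S6K1 set Cox6b2 was at 14.5, 11.9, 10.7 and 13.2 CPM in early WT, 12.7, 17.5, 15.8 and 6.77 CPM in late WT and 11.8, 17.0 and 13.8 CPM in KO libraries, 3 overlapping ranges (0.08 ± 0.26 (SE), adjusted P = 0.875 with passage). The difference between the sets in the passage effect was 0.82 ± 0.35 (SE), adjusted P = 0.452 (unadjusted P = 0.0292), the smallest P of any member, and the adjusted value did not pass. Cox6b1, the general form, was at 289.6, 289, 352 and 375 CPM in early WT and 404, 483, 644 and 418 CPM in late WT libraries of the S6K1/S6K2 set (0.66 ± 0.25 (SE), adjusted P = 0.101), without overlap, and at 530.1, 549 and 274 CPM in DKO libraries. Per kilobase, Cox6b2 made up 4.08 ± 0.757% of the Cox6b RNA in early WT, 4.85 ± 1.27% in late WT (SD, n = 4 each) and 8.42 ± 1.76% in DKO MEFs (SD, n = 3). The 3 DKO shares of 6.67%, 8.41% and 10.2% lay above the highest late WT share of 6.08%. In the S6K1 set the mean share was 2.39% to 2.78% in all 3 groups.

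The muscle forms were at low levels beside the general forms. Cox6a2 stood at 0.394 to 2.59 CPM over the 22 libraries beside Cox6a1 at 316 to 645 CPM, and Cox7a1 at 0.688 to 5.32 CPM beside Cox7a2 at 106 to 239.6 CPM. A count of 0 allows up to 0.173 to 0.279 CPM, depending on the library (3 counts, counting error only), which is the limit for Cox8c. Cox8b had at most 5 counts and Cox7b2 at most 2 in any library, whereas Cox8a was at 61.8 to 190.7 CPM and Cox7b at 127 to 289 CPM. Cox6a2 had the largest fitted fold change of the members with passage in the S6K1 set (1.13 ± 0.43 (SE), adjusted P = 0.114) and the smallest P in KO against late WT (-1.20 ± 0.48 (SE), adjusted P = 0.397, unadjusted P = 0.0269), both on few counts. No gene of these pairs passed in the main edgeR fit of any comparison. Among the alternatives, DESeq2 called Cox8a with passage in the S6K1/S6K2 set, as did edgeR without late WT library 4. Without S6K1 late WT library 1, Cox6a2 was called with passage in the S6K1 set.

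In the S6K1 set, late KO against late WT MEFs asks what loss of S6K1 does in passaged cells. No member was called (0 of 60) by edgeR, where 0.04% of all genes tested were, and DESeq2 also called 0. Only 1 of 60 members was under an unadjusted edgeR P of 0.05, against 1578 of all 14991 genes tested. The median log2 fold change was -0.09, with 17 of 60 above 0, and the fold changes ran from -1.20 to 0.40. With 1 library left out, the median ran from -0.24 (without KO library 3) to -0.00 (without late WT library 2 or KO library 1). The complex medians were -0.11, -0.11, -0.06 and -0.06 for complexes I to IV. With Y-linked RNA as a covariate, which all 3 KO libraries and 1 of 4 late WT libraries held, the median was 0.34 and Ndufb4 was called. Sdha was at 201, 172, 218 and 195 CPM in late WT and 215, 205 and 172 CPM in KO libraries (0.01 ± 0.14 (SE), adjusted P = 0.991), and Sdhc at 164, 179.8 and 183 CPM in KO libraries (-0.14 ± 0.16 (SE), adjusted P = 0.807), within the late WT range or below it. Sdhb and Sdhd had -0.23 ± 0.15 (SE), adjusted P = 0.646 and -0.07 ± 0.16 (SE), adjusted P = 0.906. Macrophage markers had a median log2 fold change of -0.89 in this comparison, with 0 of 18 called by edgeR (16 under an unadjusted P of 0.05) and 5 by DESeq2.

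Late DKO against late WT MEFs likewise gave 0 of 60 members by edgeR, against 4.53% of all genes tested, and DESeq2 called 1, Cox6b2. Again 1 of 60 members was under an unadjusted edgeR P of 0.05, against 2710 of all 14991 genes tested. The median was 0.01 (-0.01 with scaling by library totals), with 32 of 60 above 0 and a range of -0.30 to 0.73. The direction of this median rested on single libraries, since it was -0.14 without DKO library 1, 0.22 without DKO library 3 and 0.21 without late WT library 3. Uqcrc2 was at 78.8, 82.2 and 85.7 CPM in DKO libraries (-0.19 ± 0.11 (SE), adjusted P = 0.404) and Uqcrc1 at 169.7, 162 and 174 CPM (-0.17 ± 0.10 (SE), adjusted P = 0.393). For both genes DKO libraries 1 and 2 lay below all late WT libraries and DKO library 3 lay within their range. In the same comparison 14 of 18 macrophage markers and 10 of 13 genes of dividing cells fell (Mki67, Top2a and Mcm5 among them). The fold changes of the complex II genes were 0.03 ± 0.11 (SE), adjusted P = 0.936 for Sdha, -0.12 ± 0.17 (SE), adjusted P = 0.78 for Sdhb, -0.06 ± 0.12 (SE), adjusted P = 0.854 for Sdhc and -0.14 ± 0.15 (SE), adjusted P = 0.684 for Sdhd. Standard errors of the members ran from 0.10 to 0.55, and a gene that misses the threshold is not shown to be equal in both genotypes.

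The difference between the 2 MEF sets was tested for each effect. For the passage effect 0 of 60 members were called by edgeR or DESeq2, against 0.714% of all genes tested by edgeR. Under an unadjusted edgeR P of 0.05 were 3 of 60 members, against 1428 of all 14991 genes tested. The 3 were Cox6b2, Ndufa10 (0.47 ± 0.21 (SE), adjusted P = 0.491) and Ndufa9 (-0.38 ± 0.18 (SE), adjusted P = 0.504). The median difference, S6K1/S6K2 set minus S6K1 set, was 0.24, but 0.08 with the length trend removed and 0.11 to 0.34 with 1 library left out. For the genotype effect 0 of 60 were called by either tool, against 0.00667% of all genes. Under an unadjusted edgeR P of 0.05 was 1 of 60 members, against 1629 of all 14991 genes tested. It was Cox6a2 (1.58 ± 0.73 (SE), adjusted P = 0.437), followed by Uqcrc2 (-0.44 ± 0.25 (SE), adjusted P = 0.534) and Cox6b2 (0.62 ± 0.38 (SE), adjusted P = 0.578). No single member was shown to differ between the sets.

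The core subunits coded by mitochondrial DNA, 2 of ATP synthase included, were listed beside the nuclear ones. Of 13 listed, 7 were measured (mt-Nd1, mt-Nd2, mt-Nd4, mt-Nd5, mt-Nd6, mt-Co1 and mt-Cytb), while the other 6 were listed at 0 or a few counts. Why those 6 were so low was not tested, and the sums below rest on the 7 measured genes alone. The summed level was 12709.6, 5245, 10085 and 5115 CPM in early WT, 5512, 4835, 4545 and 5132 CPM in late WT and 10718, 11158 and 7771 CPM in KO libraries of the S6K1 set. KO libraries lay above late WT libraries without overlap. Early WT libraries 1 and 3 lay far above 2 and 4. In KO against late WT all 7 had a fold change above 0 (median 0.97), but none was called by edgeR (lowest adjusted P = 0.192, for mt-Nd2 at 1.07 ± 0.26 (SE)), with 5 under an unadjusted P of 0.05, while DESeq2 called mt-Nd2 and mt-Nd4. In the S6K1/S6K2 set the sums were 11371, 9991, 10268 and 8219.5 CPM in early WT, 12602, 9689, 8842 and 6553 CPM in late WT and 7164, 7842 and 8684 CPM in DKO libraries, which overlapped. With passage mt-Nd2 fell in the S6K1 set (-0.89 ± 0.25 (SE), adjusted P = 0.0346) and mt-Nd5 in the S6K1/S6K2 set (-0.59 ± 0.15 (SE), adjusted P = 0.0254), both complex I subunits. All 7 had a fold change below 0 with passage in the S6K1 set (median -0.70, 4 under an unadjusted P of 0.05), where DESeq2 called mt-Nd2, mt-Nd4 and mt-Nd5. In the S6K1/S6K2 set 3 were above 0 and 4 below (median -0.03), and DESeq2 called mt-Nd5 alone.

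**Figure D5:**
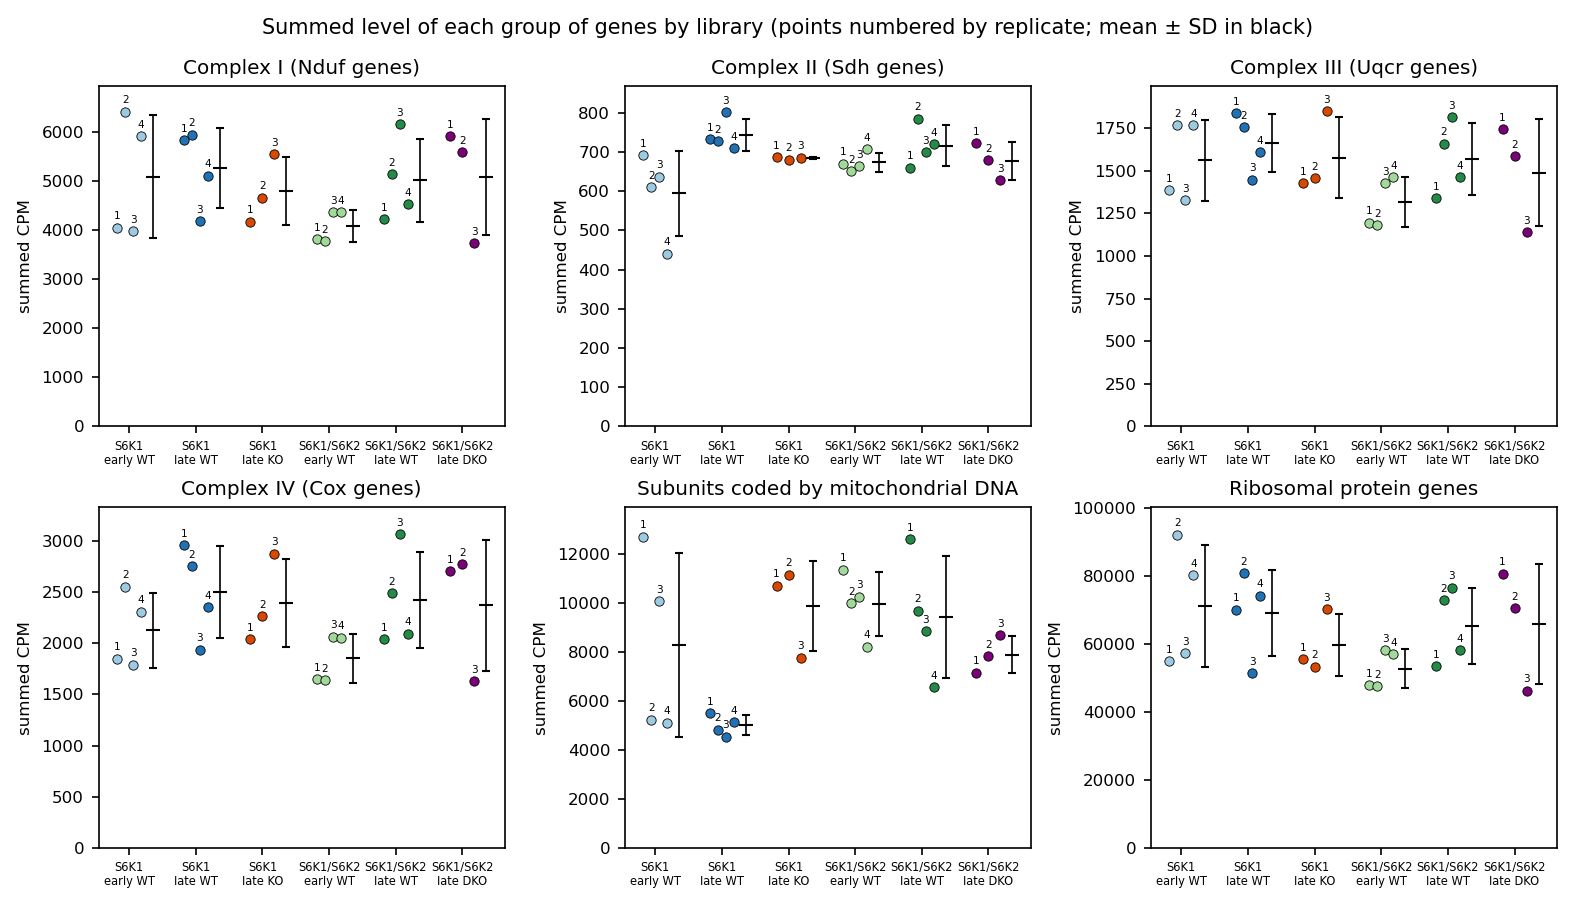
Summed CPM of the subunit genes of complexes I to IV, of subunits coded by mitochondrial DNA and of ribosomal protein genes by library in the 6 groups, with points numbered by replicate and black bars giving the mean ± SD. Complexes I, III and IV and the ribosomal protein genes share many but not all of their high and low libraries. For the sum of all members, the highest library was also that of the ribosomal protein genes in 4 of 6 groups, and the lowest in 4 of 6. Complex II is lowest in S6K1 early WT library 4. The mitochondrial DNA panel shows KO libraries at 7771 to 11158 CPM above late S6K1 WT libraries at 4545 to 5512 CPM.

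Of 8 nuclear subunits and paralogs outside the naming rule, 7 were tested and 1 was called. Ndufa4l2, a paralog of Ndufa4 known to respond to low oxygen, fell with passage in both sets, from 8.55, 6.03, 5.46 and 0.901 CPM to 0.0758, 0.457, 0.479 and 0.908 CPM in the S6K1 set (-3.37 ± 0.64 (SE), adjusted P = 0.00488) and from 5.26, 5.62, 5.29 and 3.47 CPM to 0.938, 1.05, 0.0701 and 0.806 CPM in the S6K1/S6K2 set (-2.68 ± 0.52 (SE), adjusted P = 0.00614). Early library 4 of the S6K1 set lay within the late range, and the late values rest on few counts. Cox4i1, the general form of subunit 4 of complex IV, was at 626, 626, 786 and 831 CPM in early WT and 742, 1039, 1129 and 830.4 CPM in late WT MEFs of the S6K1/S6K2 set (0.47 ± 0.23 (SE), adjusted P = 0.19). Cyc1, the cytochrome c1 of complex III, was at 101, 35.2, 89.1 and 28.1 CPM in the 4 S6K1 early WT libraries, with libraries 1 and 3 high, and had -0.35 ± 0.12 (SE), adjusted P = 0.124 in DKO against late WT.

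ATP synthase genes gave 0 of 18 tested as called by edgeR in any of the 4 comparisons (5 gene values in all under an unadjusted P of 0.05). DESeq2 called 1, Atp5e, as higher with passage in the S6K1/S6K2 set, where the median of the list was 0.15. Of 41 assembly factors, proteins that build the complexes without being part of them, 3 rose with passage in the S6K1 set and 4 rose and 1 fell in the S6K1/S6K2 set. These are shares near or below those of all genes tested (7.2% higher in the S6K1 set, 7.98% higher and 4.62% lower in the S6K1/S6K2 set). Cox19, a copper chaperone of complex IV assembly, rose in both (0.52 ± 0.13 (SE), adjusted P = 0.0198 and 0.42 ± 0.13 (SE), adjusted P = 0.0453). Tmem126b, a complex I assembly factor, rose in the S6K1 set (0.62 ± 0.13 (SE), adjusted P = 0.00697), and Cox18, which inserts a complex IV subunit into the membrane, fell in the S6K1/S6K2 set (-0.63 ± 0.18 (SE), adjusted P = 0.0365). In KO and in DKO against late WT, 0 of the 41 were called by edgeR or DESeq2, with 2 and 1 under an unadjusted P of 0.05. Of 12 tested regulators, Nrf1, Gabpa, Tfam and Yy1 among them, 0 were called by edgeR in any comparison (3 under an unadjusted P of 0.05, all with passage in the S6K1/S6K2 set), and DESeq2 called 1 there, Nrf1, as lower.

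Marker genes of several cell types differed with passage. Macrophage markers also fell in DKO against late WT MEFs, where edgeR called no member. All 18 macrophage markers rose with passage in the S6K1 set (median 3.08) and 17 of 18 in the S6K1/S6K2 set (median 2.54), and 4 of 13 genes of dividing cells fell in the latter. The summed fibroblast markers were lower in late than in early WT libraries without overlap in both sets, at 31008, 34627, 32429.9 and 30084 CPM in early and 18759, 23281, 27544 and 22639 CPM in late WT libraries of the S6K1 set. In the S6K1/S6K2 set they were at 39562, 41959, 35049 and 30570.1 CPM in early and 27550.4, 21682, 20598 and 20620.0 CPM in late WT libraries. Of the 10 fibroblast markers, 1 fell in the S6K1 set and 2 in the S6K1/S6K2 set, while 5 and 3 of the 10 had fold changes above 0. The markers did not move as 1. In the S6K1 set Col1a1 was at 7546.5, 9419, 9086 and 8936 CPM in early and 3062, 4896, 6943 and 4800.5 CPM in late WT libraries. Vim was at 6621, 5832, 6141 and 4647 CPM in early and 6533, 5322.5, 6272 and 5807 CPM in late ones. The part of the marker genes in the values of the subunit genes was not tested. Epithelial (1.1 to 51.7 CPM), endothelial (1.9 to 9.8 CPM), adipocyte (15.5 to 82.3 CPM) and muscle markers (19.9 to 253.6 CPM) summed to low levels in all 22 libraries.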

How the data were processed

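RNA from 22 MEF cultures was sequenced by poly(A)-selected, stranded, single-end RNA-seq. The authors deposited raw whole-number read counts per Ensembl gene, unnormalised. The labels' processing notes name CASAVA, STAR 2.7.1a, mm10 and DESeq2 1.28.1, whereas the study's methods give TopHat, mm9 and HTSeq; 22812 of 55401 identifiers are absent from the mm9 annotation used here for symbols and exon lengths. The treatment of reads shared by gene copies is not given in the sources used here, and 5 members have 6 named pseudogenes between them, so that their counts are less certain. Total counts were 10742454 to 17314832 per library.

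Symbols were found for 32589 identifiers, holding 96.98% of counts. Genes with 10 or more counts in 3 or more libraries (14991) were fitted with edgeR 4.0.16 in R 4.3.3 (TMM factors 0.884 to 1.11, quasi-likelihood F test, Benjamini-Hochberg, threshold 0.05), each set of 3 groups by itself and all 22 libraries for differences between sets. SE is the fold change divided by the root of F. Levels are CPM of raw counts, and fold changes are log2. Scripts were tested on simulated data. Members and lists were chosen with earlier results of these data known. Named were called members, complex II, isoform pairs, core subunits of complex I as a group, core subunits of complex III, the 3 smallest P values per interaction and the 3 highest levels. Ndufs3, Ndufb3, Ndufb4, Ndufb10, Ndufa2 and the pathway genes named were chosen after their values were seen. Results for 1 member by name are not reported here. Alternatives were DESeq2 1.42.0, other scalings and filters, a Y-linked covariate, other sample sets, each library left out, and, added after seeing the data, removal of the length trend.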

Additional observations from a re-analysis of the deposited data

Results flagged for a closer look

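In 92 groups of 4 libraries (23 measures), chance alone would set a library apart about 1 time in 20, and 4 values stood apart by the gap to their nearest neighbour over the range of the group. Sdhc was at 210.3 CPM in late WT library 2 of the S6K1/S6K2 set (gap over range 0.946), and Sdhd at 107.8 CPM in S6K1 late WT library 4 (0.894). In S6K1 early WT library 4, Cox6a2 was at 0.9756 CPM (0.867) and Cox7b at 152.6 CPM (0.84). No difference between the MEF sets passed for a member.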

How the results depend on the processing

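No called member changed direction under any alternative run, but the counts of calls moved. For passage in the S6K1 set, 2 members were called, against 6 with DESeq2, 8 with the Y-linked covariate (5 higher, 3 lower), 1 with RLE scaling, 1 with edgeR's own filter, 0 without a filter, 0 with both groups fitted alone, and 0 to 3 when each library was left out (0 without early WT library 4 or late WT library 2, 1 without early WT library 1 or 3 or late WT library 4). For passage in the S6K1/S6K2 set, 3 were called, against 9 with DESeq2 (7 higher, 2 lower), 5 with scaling by library totals, 5 with both groups fitted alone, and 0 to 6 when each library was left out (0 without early WT library 1 or 3 or late WT library 2 or 3, 1 without early WT library 2, 6 without late WT library 1 or 4). The 0 calls became 1 in KO against late WT with the Y-linked covariate (Ndufb4), and 1 in DKO against late WT with DESeq2 and 1 with that covariate (Cox6b2 in both). Calls over all genes moved too. For passage in the S6K1 set they were 1079 higher and 712 lower, against 1454 and 1244 with DESeq2 and 1862 and 1502 with the Y-linked covariate. For passage in the S6K1/S6K2 set they were 1196 and 692, against 1547 and 1314 with DESeq2. In KO against late WT they were 1 and 5, against 33 and 20 with the covariate. In DKO against late WT they were 115 and 564, against 355 and 851 with DESeq2. The cause of these moves was not tested. With each library left out in turn, the members' median log2 fold change was 0.04 to 0.26 for passage in the S6K1 set and 0.22 to 0.48 in the S6K1/S6K2 set, -0.24 to -0.00 for KO and -0.14 to 0.22 for DKO against late WT, and 0.11 to 0.34 and -0.00 to 0.33 for the differences between sets in the passage and genotype effects. With the Y-linked covariate the last of these medians was -0.04, against 0.11. Exon lengths were known for 92.3% of genes tested. No paired analysis was possible because the labels give no replicate numbers that tie libraries of different groups together.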
